A study of Mus musculus with 3 samples.

Results

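The 10 genes described here are lens crystallins: the alpha crystallins Cryaa and Cryab, the beta crystallins Cryba1, Crybb2 and Crybb3, and the gamma crystallins Crygc, Crygd, Cryge, Crygf and Crygs. They were chosen on their measured levels, which were far higher in 1 of the 3 libraries than in the others, so their differences between libraries are a description and carry no test. They are 10 of the 30406 genes whose Ensembl identifiers occurred in the gene list of every library, and all 10 had UMIs in every library.

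Crystallins are the main soluble proteins of the lens, which lies behind the cornea and is not a part of it. The alpha crystallins are small heat shock proteins that act as chaperones, and Cryab is also made in muscle and many other tissues. The beta and gamma crystallins share a common fold and are structural proteins, and the gamma crystallins are made above all in lens fibre cells, the elongated cells that fill the lens.

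Nuclei from whole corneas of mice were counted in 3 droplet libraries (10x Genomics 3′ chemistry, version 3), each from the pooled, snap-frozen corneas of 5 mice aged 7 weeks. The WT library came from untreated wild-type mice, the KO library from untreated mice lacking Aire, and the KO_PBS library from mice lacking Aire that had been given phosphate-buffered saline (PBS) for 14 days. Aire drives the display of tissue antigens in the thymus, and its loss in mice leads to autoimmune disease that includes dry eye. The series text states another age, 6 weeks, and day 7 of treatment, and its lacripep arm was not analysed here. Each group had 1 library, so no difference had a replicate check, no p-value could be given, and the group and its library cannot be told apart.

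The libraries held 96587 (WT), 107031 (KO) and 114357 (KO_PBS) barcodes, with 256852883, 352627863 and 178988562 UMIs. Aire had 15 (WT), 27 (KO) and 68 (KO_PBS) UMIs, so the targeted gene did not check the labels, and each library is named as it was labelled. Libraries shared 2833 (WT and KO), 2998 (WT and KO_PBS) and 3379 (KO and KO_PBS) barcode sequences, and 84 occurred in all 3. In KO the summed crystallin level was 297 CPM (UMIs divided by the library's total and multiplied by 1000000) in the barcodes shared with KO_PBS and 302.3 in the others. The corneal epithelium markers, which define the labelled tissue, summed to 43555 (WT), 30268 (KO) and 17387 (KO_PBS) CPM. Krt12 (26121, 13793 and 6205 CPM), Krt5 and Krt15 followed that order. Aldh3a1 was highest in KO_PBS (5762, 7158 and 7739 CPM), and Krt14 and Trp63 were highest in KO.

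Of the gamma crystallin genes 4 lie on chromosome 1 (build GRCm38, the assembly also called mm10, GENCODE M21 gene models): Cryge at chr1:65048554-65051149, Crygd at chr1:65061872-65063452 and Crygc at chr1:65071525-65073689 on the minus strand, and Crygf at chr1:65926520-65928307 on the plus strand. Crygs lies apart, at chr16:22805203-22811577. Crybb2 (chr5:113058258-113070117) and Crybb3 (chr5:113075839-113081584) are neighbours, and Cryaa (chr17:31677807-31681733), Cryab (chr9:50751325-50756636) and Cryba1 (chr11:77718615-77725283) each lie alone. The promoters of Crygd, Cryge and Crygf are shown because these 3 genes had the largest ratios of KO_PBS to the other libraries among the 10 and share long stretches of sequence. They come from RefSeq (GRCm38.p6, 9 of the 10 genes matched), each written 5′ to 3′ on the gene's own strand from 250 bases before the RefSeq start to the end of the capitals. Capitals mark the longest stretch that all 3 hold, of 55 bases, which spans the start. The promoter of Cryaa is shown with the Maf recognition letters TGCTGA in capitals, since Maf is a transcription factor of lens fibre cells.
Crygd (chr1:65063431-65063690, minus strand): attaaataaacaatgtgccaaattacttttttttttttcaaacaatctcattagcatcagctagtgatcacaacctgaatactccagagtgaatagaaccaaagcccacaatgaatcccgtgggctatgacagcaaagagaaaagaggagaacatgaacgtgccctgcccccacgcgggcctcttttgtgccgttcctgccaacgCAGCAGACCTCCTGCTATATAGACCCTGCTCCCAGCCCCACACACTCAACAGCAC
Cryge (chr1:65051142-65051413, minus strand): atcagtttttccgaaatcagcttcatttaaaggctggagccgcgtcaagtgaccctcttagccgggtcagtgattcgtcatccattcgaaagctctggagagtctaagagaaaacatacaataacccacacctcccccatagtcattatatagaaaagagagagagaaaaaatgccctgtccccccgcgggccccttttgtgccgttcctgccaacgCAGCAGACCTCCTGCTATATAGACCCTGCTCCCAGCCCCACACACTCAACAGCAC
Crygf (chr1:65926272-65926529, plus strand): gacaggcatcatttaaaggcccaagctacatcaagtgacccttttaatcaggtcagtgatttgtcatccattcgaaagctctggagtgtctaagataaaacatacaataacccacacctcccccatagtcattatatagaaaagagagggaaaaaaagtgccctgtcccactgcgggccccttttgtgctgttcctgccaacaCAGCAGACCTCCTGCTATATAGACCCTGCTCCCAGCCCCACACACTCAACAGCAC
Cryaa (chr17:31677681-31677828, plus strand): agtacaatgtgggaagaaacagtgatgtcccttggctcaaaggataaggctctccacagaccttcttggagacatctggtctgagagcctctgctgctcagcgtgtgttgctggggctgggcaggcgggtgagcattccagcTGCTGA

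The stretch in capitals occurred in 3 of 32851 mouse promoters of 300 bases (0.00913%), those of Crygd, Cryge and Crygf themselves. Over those 300 bases Cryge and Crygf were 87% identical, Crygd and Crygf 75.3%, and Crygd and Cryge 71.7%, against a median of 52.7% over the 36 pairs of the 9 promoters. The letters TGCTGA, searched on both strands, were in 5 of the 9 crystallin promoters (Cryaa, Cryba1, Crybb3, Crygc and Crygs) and in 19.5% of all promoters. TATAAA, a form of the TATA box, was in 2 of 9 (Cryba1 and Crygs) and in 13.6% of all, and AACAAT, a core bound by Sox factors, in 2 of 9 (Crygd and Crygs) and in 10.7% of all.

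The transcripts share sequence as well. Of the 60-base windows of the longest coding transcript, 39.5% of those of Cryge, 29.2% of Crygd, 28.7% of Crygf and 22.4% of Crygc also occurred in another gene's transcripts, while no window of the other 6 did. Over the last 300 windows, where 3′ libraries take most reads, the shares were 26.3% for Cryge, 25.0% for Crygf, 1.33% for Crygd and 0% for Crygc. Values of Cryge and Crygf taken singly are therefore uncertain. Exons of Cryab overlap those of Hspb2 on the opposite strand, and Hspb2 had 667, 763 and 1236 UMIs in WT, KO and KO_PBS against 67055, 28925 and 164759 for Cryab. Cryaa overlaps exons of AC090881.2 on the opposite strand, listed in WT and KO only with 31 and 11 UMIs.

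Summed over the 10 genes, crystallins reached 836 CPM in WT (95% Poisson interval 833 to 840), 302.2 in KO (300.3 to 304.0) and 10523 in KO_PBS (10508 to 10538). These were 0.0836%, 0.0302% and 1.05% of all UMIs. KO_PBS was thus the high library and KO the low one. The ratio of KO_PBS to KO was 34.8, or 5.12 on the log2 scale (interval 5.11 to 5.13), that of KO_PBS to WT was 12.6, and that of WT to KO was 2.77. All intervals cover counting error only, and the amount of lens material, the number of lens cells and the RNA in each of them cannot be told apart in such sums.

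A gene was counted as higher or lower when the libraries compared held 50 or more of its UMIs, its levels were at least 2-fold apart and their Poisson intervals did not overlap. This is no test. By this rule of size all 10 crystallins were higher in KO_PBS than in KO, where 39.9% of all genes that met the UMI minimum were higher and 4.7% were lower. All 10 were higher in KO_PBS than in WT, where 57% of all genes were higher and 4.06% lower. In KO against WT, 9 of the 10 were lower and none higher, where 8.63% of all genes were lower and 20.6% higher; the exception was Crybb2, 1.97-fold lower. Without the 1% of barcodes richest in crystallins 8 were lower, Crybb3 being at -0.94 on the log2 scale. The median log2 ratio of the 10 was 5.43 for KO_PBS against KO, beside 0.63 over all genes. It was 3.96 for KO_PBS against WT beside 1.27, and -1.46 for KO against WT beside 0.24. Since the genes were chosen on these levels, the counts are not evidence of a difference. Centred on the median gene, the log2 ratio of the summed level was 4.49 for KO_PBS against KO, 2.38 for KO_PBS against WT and -1.71 for KO against WT. All 3 directions held, but the first 2 ratios shrank by more than 1.5-fold. So centred, 9 of the 10 were higher in KO_PBS than in WT, Cryab being at 0.55 on the log2 scale, while 6558 of all 22138 genes were higher and 5106 lower, in place of 12609 and 899. In KO_PBS against KO, 6690 of 22416 genes were then higher and 2891 lower, in place of 8942 and 1053, and in KO against WT 2995 of 20252 were higher and 2622 lower, in place of 4164 and 1748, with all 10 crystallins lower.

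**Figure D1:**
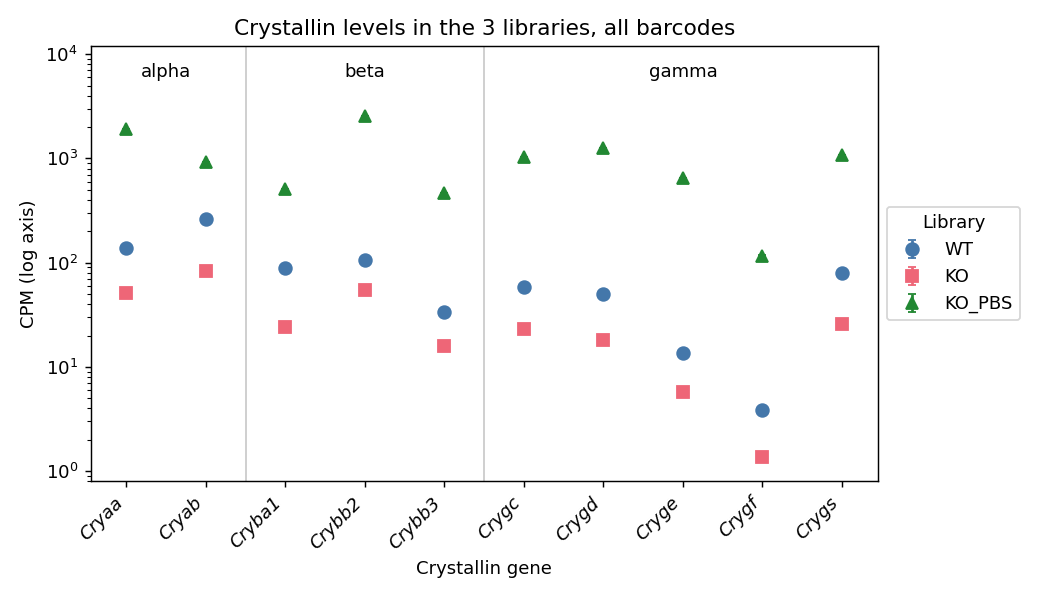
Level of each of the 10 crystallins in CPM (log axis), grouped as alpha, beta and gamma, with 1 point per library and 95% Poisson intervals that are mostly smaller than the points. For each gene KO_PBS is highest and KO lowest, from Crygf with 1.38, 3.84 and 116 in KO, WT and KO_PBS to Crybb2 with 54.5, 107 and 2571.

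The alpha crystallins had the smallest ratio of KO_PBS to KO among the 3 families. Their summed level was 402 CPM in WT, 133 in KO and 2854 in KO_PBS, a ratio of 21.4 between KO_PBS and KO. Cryaa (ENSMUSG00000024041), the alpha crystallin largely restricted to the lens, was at 139.6 CPM in WT, 50.9 in KO and 1928 in KO_PBS. It was 37.9-fold higher in KO_PBS than in KO and 2.74-fold lower in KO than in WT. Cryab (ENSMUSG00000032060), the widely expressed one, was at 262, 82.3 and 927 in that order. Its KO_PBS to KO ratio of 11.3 was the smallest of the 10, and its WT to KO ratio of 3.18 was the second largest.

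The beta crystallins together were at 230 CPM in WT, 94.8 in KO and 3550 in KO_PBS, 37.5-fold higher in KO_PBS than in KO. Crybb2 (ENSMUSG00000042240), a basic beta crystallin, was at 107 in WT, 54.5 in KO and 2571 in KO_PBS, and in KO_PBS it held rank 23 among all genes by UMIs, against rank 1078 in WT and 2909 in KO. Its gene neighbour Crybb3 (ENSMUSG00000029352) was at 33.8, 15.9 and 467, and the KO_PBS to KO ratios of the neighbours were 47.2 and 29.3. Cryba1 (ENSMUSG00000000724), an acidic beta crystallin, was at 89.0, 24.3 and 511. It had the largest WT to KO ratio of the 10 genes, 3.66, and a KO_PBS to KO ratio of 21.0. The beta crystallins therefore did not move by 1 common factor: the ratio of Crybb2 to Cryba1 UMIs was 1.20 for WT, 2.24 for KO and 5.03 for KO_PBS.

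The gamma crystallins had the largest ratio of KO_PBS to the other libraries. Their sum was 205 CPM in WT, 74.2 in KO and 4119 in KO_PBS, which was 55.6-fold higher than in KO and 20.1-fold higher than in WT. Crygc (ENSMUSG00000025952) was at 58.3 in WT, 23.0 in KO and 1028 in KO_PBS, and Crygd (ENSMUSG00000067299) at 49.9, 18.1 and 1251. The order of these neighbours was thus turned between WT and KO_PBS, the Crygd to Crygc ratio of UMIs being 0.856 in WT, 0.785 in KO and 1.22 in KO_PBS. Crygs (ENSMUSG00000033501), which is encoded apart from the others and is also made in the adult lens, was at 78.9, 25.9 and 1074, 41.4-fold higher in KO_PBS than in KO.

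Cryge and Crygf, whose promoters are the most alike, had the largest KO_PBS to KO ratios of the 10 genes. Cryge (ENSMUSG00000070870) was at 13.6 CPM in WT, 5.80 in KO and 651 in KO_PBS, a ratio of 112 between KO_PBS and KO. Crygf (ENSMUSG00000025945) was at 3.84, 1.38 and 116, a ratio of 84.5. Crygd, which holds the same promoter stretch, followed with 69.2 among these genes. Cryga, a gamma crystallin outside them and not among the genes found to hold that stretch, had 78.4. The KO_PBS gene list differs from that of the other libraries (31053 against 32285 genes). Whether this changed how reads were assigned, to these or to any other genes, was not tested. The difference in lists cannot be told apart from the group in any comparison with KO_PBS. The ratio of Cryge to Crygf UMIs was 3.55 in WT, 4.21 in KO and 5.59 in KO_PBS; reads that fit both genes can move this ratio.

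Levels of different genes were compared per kilobase of exon. Cryab ranked first of the 10 in WT and KO, with 177 and 55.7 CPM per kilobase, but seventh in KO_PBS with 626. Crygc ranked first in KO_PBS with 1307, followed by Crybb2 with 1278 and Crygs with 1227. Crygf ranked last in every library, with 6.12, 2.20 and 186 in WT, KO and KO_PBS. 3′ libraries count transcript ends, so dividing by length may favour short genes such as Crygc. By CPM alone, Cryab was first in WT and KO and sixth in KO_PBS, where Crybb2 was first.

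The make-up of the crystallin UMIs does not depend on the library total. Gamma crystallins gave 24.5% of the UMIs of the 10 genes in WT (exact binomial interval 24.3 to 24.7%), 24.5% in KO (24.3 to 24.8%) and 39.1% in KO_PBS (39.1 to 39.2%). The WT and KO shares of gamma were alike within counting error, while the KO_PBS share lay above both. Alpha crystallins went the other way, with 48.0%, 44.1% and 27.1%, and beta crystallins made up 27.5%, 31.4% and 33.7%. Most of the difference in the alpha share lay in Cryab, from 31.3% in WT and 27.2% in KO to 8.80% in KO_PBS, while Cryaa stayed between 16.7% and 18.3%. Leaving out Cryab, the gamma share of the other 9 genes was 35.6% (WT), 33.7% (KO) and 42.9% (KO_PBS), so a smaller gap remained. Among single genes the share of Cryge was 1.63% in WT, 1.92% in KO and 6.19% in KO_PBS, and that of Cryba1 was 10.6%, 8.05% and 4.86%.

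**Figure D2:**
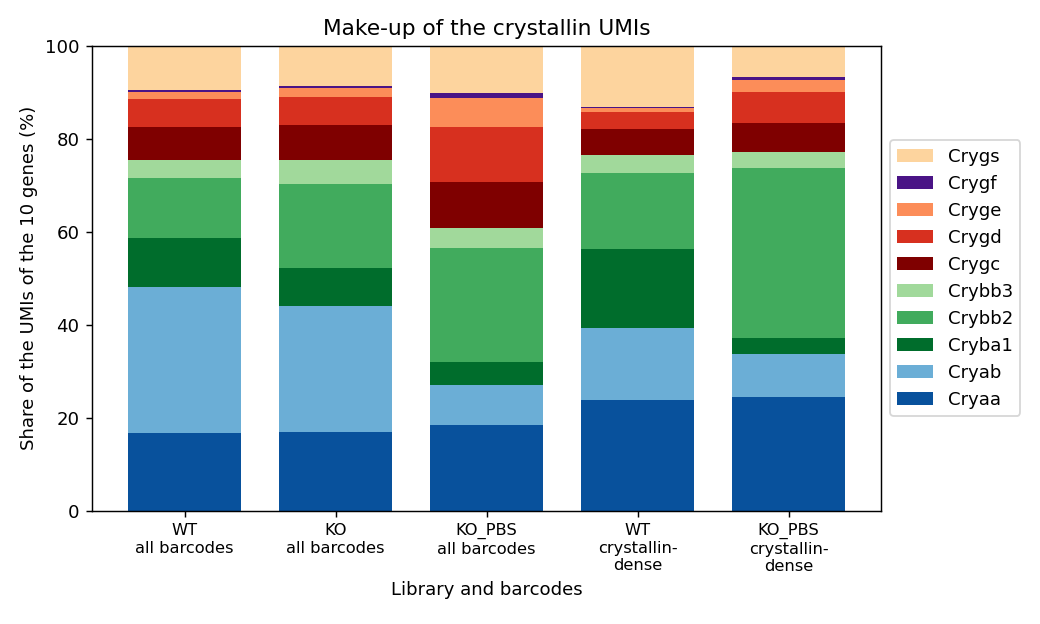
Share of each crystallin among the UMIs of the 10 genes (%, stacked to 100), for all barcodes of each library and for the crystallin-dense barcodes of WT (26) and KO_PBS (86), those with at least 5% crystallin UMIs. Over all barcodes the gamma genes make up 39.1% in KO_PBS against 24.5% in WT, while in the dense barcodes they make up 22.7% and 23.4%.

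Crystallin UMIs lay over nearly every barcode of the KO_PBS library. At least 1 was found in 78.0% of WT barcodes, 57.1% of KO barcodes and 99.99% of KO_PBS barcodes, where 8 of 114357 had none. The median UMIs of a barcode were 2261, 2980 and 1432, so the library with the lowest depth had the highest share. With each barcode thinned to 1000 UMIs, leaving out 250, 219 and 16277 barcodes with fewer, the shares were 49.9%, 25.0% and 99.96%. A thinned barcode of KO_PBS held 10.8 crystallin UMIs on average, with 5 at the fifth percentile of barcodes and 17 at the 95th. The means were 0.843 in WT and 0.306 in KO.

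In KO_PBS the single genes followed the same pattern: Crybb2 had a UMI in 96.7% of barcodes, Cryaa in 93.0% and Crygd in 83.5%, against 20.4%, 24.6% and 11.1% in WT. The barcodes differed little from each other in KO_PBS. The variance of the thinned summed UMIs over their mean, 1 for pure counting, was 6.57 in WT, 2.41 in KO and 2.14 in KO_PBS, and 2.81, 1.43 and 1.46 without the crystallin-dense barcodes. For the same relative spread this measure grows with the mean, which was 0.843, 0.306 and 10.8. Its values in the 3 libraries are therefore not directly comparable. The 1% of barcodes with the most crystallin UMIs held 16.5% of them in WT, 9.69% in KO and 3.45% in KO_PBS. Pairs of crystallins were found together in thinned barcodes 1.87 times as often as the product of their shares in WT (median of 45 pairs), 1.48 times in KO and 1.01 times in KO_PBS. The ratio has little room to rise where most barcodes hold both genes, so its low value in KO_PBS is no measure of independence.

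**Figure D3:**
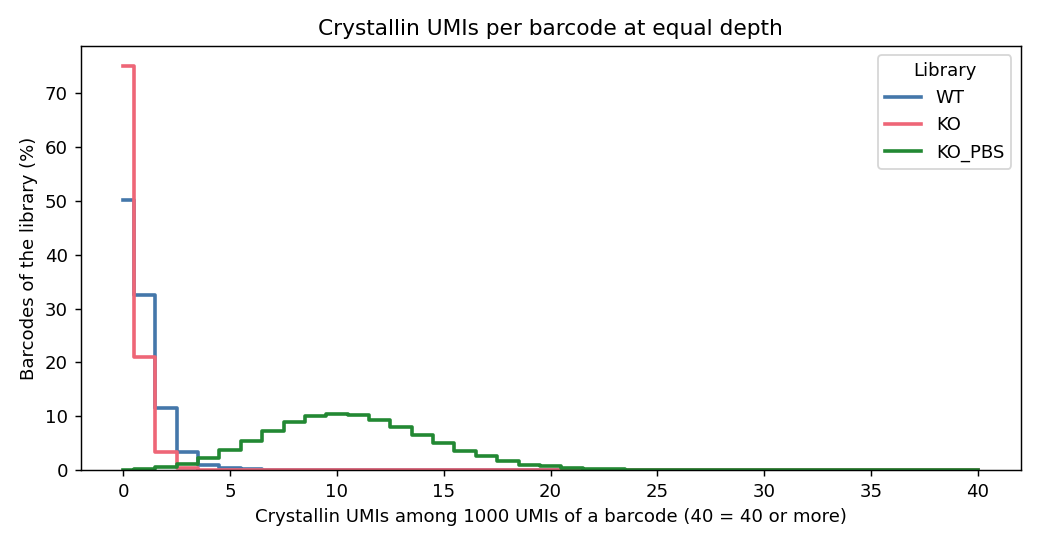
Share of barcodes (%) by the number of crystallin UMIs among 1000 UMIs of a barcode, as 1 line per library. The median is 0 in WT and KO and 11 in KO_PBS, where the fifth percentile is 5.

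Barcodes with few UMIs held at least as much crystallin RNA per UMI as the others. Barcodes of each library were ranked by UMIs and divided into 4 bins of equal size. In KO_PBS the level was 12585 CPM in the lowest bin, whose median was 976 UMIs, then 11681 and 10896, and 8879 in the highest bin, with a median of 2154 UMIs. WT went from 904 to 805 and KO from 316 to 292 between the lowest and highest bins. In KO_PBS the gap was small for Cryab, Cryba1 and Crygf, with 979, 524 and 116 CPM in the lowest bin and 841, 482 and 108 in the highest, and larger for Crybb2, with 3112 and 2177. The lowest bin was not shown to be free of nuclei.

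Barcodes rich in the markers of a cell type were then examined, using lists that hold no crystallin. A barcode was rich in a list when it had at least 1000 UMIs, at least 3 of its genes and at least 5 times the library's share of UMIs from it. The lens fibre list (among others the channel gene Mip, the connexin Gja3, the beaded filament genes Bfsp1 and Bfsp2, and Lgsn, Grifin, Birc7, Lctl and Dnase2b) gave 17 (WT), 3 (KO) and 471 (KO_PBS) barcodes. Their crystallin level was 96048 CPM in WT, 26989 in KO and 26621 in KO_PBS, which was 115, 89.3 and 2.53 times the level of the whole library. Without those that were crystallin-dense, numbering 10 (WT), 1 (KO) and 60 (KO_PBS), the ratios were 19.7, 18.5 and 1.26. With at least 10 times the library share of the list, 139 barcodes of KO_PBS remained and reached 63676, while the 17 of WT and 3 of KO all stayed. The higher share thus changed the choice in KO_PBS alone, so the rule was not equally strict in each library and the ratios to the library are not alike in kind. With at least 2 of its genes in place of 3, the levels were 9966 (WT), 1956 (KO) and 15563 (KO_PBS) CPM, so the order of WT and KO_PBS depends on this setting.

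Barcodes rich in markers of other cell types carried crystallins too. In KO_PBS the level was 7802 CPM in photoreceptor-rich barcodes, 8600 in retinal pigment epithelium-rich, 6952 in vascular endothelium-rich and 11189 in red blood cell-rich barcodes, against 10523 over all. Every one of these barcodes had a crystallin UMI, at median depths of 1963, 1778, 2503 and 1446 UMIs. In WT, 96.2% of vascular endothelium-rich barcodes (median 7220 UMIs) and 85.5% of red blood cell-rich barcodes (median 2869) had one, with levels 0.933 and 0.911 times that of the library. Where the level does not stand above that of its library, a crystallin UMI in a barcode is not read as expression, and its source was not tested.

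**Figure D4:**
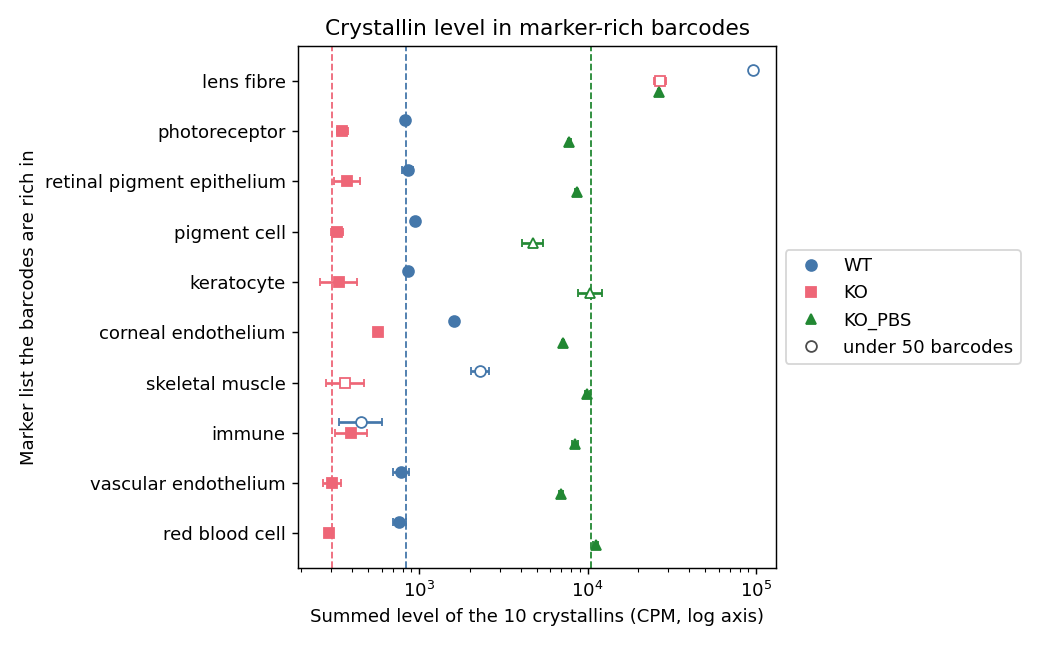
Summed crystallin level (CPM, log axis) in barcodes rich in each marker list, 1 point per library with 95% Poisson intervals, open where fewer than 50 barcodes; dashed lines mark the level over all barcodes of the library. Lens fibre-rich barcodes lie at 96048 in WT and 26621 in KO_PBS, and the other lists lie from 0.450 to 2.74 times the library's own level.

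The other lists lay between 0.450 and 2.74 times the library level. The highest were skeletal muscle and then corneal endothelium in WT, corneal endothelium in KO, and red blood cell in KO_PBS, at 1.06 times. Corneal endothelium-rich barcodes, from the cell layer that faces the lens side of the cornea, had a WT level of 1619 CPM and a KO level of 567, 1.94 and 1.88 times the library, and a KO_PBS level of 7140, 0.679 times. Cryab in them was at 651 CPM in WT, 210.0 in KO and 810 in KO_PBS, against 262, 82.3 and 927 over the libraries, and Cryaa was at 227, 91.8 and 1269. In these barcodes all 10 crystallins were above their library level in WT, all but Crygf in KO and none in KO_PBS. The rule of 5 times the library share is stricter where a list's own library level is higher. For corneal endothelium that level was 214 (WT), 298 (KO) and 1164 (KO_PBS) CPM, so the KO_PBS choice was the strictest. These KO_PBS barcodes had a median of 2263 UMIs, and the crystallin level in the highest UMI bin of KO_PBS was 8879 CPM. The ratios are thus not alike in kind, and whether KO_PBS lacks the excess seen in WT and KO was not tested. The 26 skeletal muscle-rich barcodes of WT stood out through Cryab, at 1816 CPM, while Cryaa was at 134.5, near the library's 139.6. In KO_PBS 186 muscle-rich barcodes had Cryab at 934, near the library's 927. Keratocyte-rich barcodes were at 856 in WT, 334 in KO and 10331 in KO_PBS, from 1714, 67 and 7 barcodes. No barcode met the rule for the corneal epithelium list, whose library share is already high.

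A few barcodes stood apart in their crystallin share. Barcodes with at least 1000 UMIs and at least 5% of them from the 10 genes, a threshold chosen after the values were seen, numbered 26 for WT, 2 for KO and 86 for KO_PBS. They held 4.18%, 0.645% and 0.886% of the crystallin UMIs of their library. Between 3% and 5% lay a further 33, 2 and 102 barcodes, and between 5% and 7% lay 11, 1 and 41 of the dense ones, so the threshold falls within a continuous range. The barcode with the most crystallin UMIs in WT had 1647 of 6449 (25.5%) and that of KO_PBS 1631 of 6519 (25.0%). The WT barcode had 422 UMIs of Cryaa, 276 of Cryab, 300 of Cryba1 and 307 of Crybb2, and the KO_PBS barcode had 437, 148, 50 and 720 of the same genes.

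The lens fibre genes, which were not used to choose the dense barcodes, were higher in them. Their summed level was 1557 CPM in the WT dense barcodes against 25.9 in the other WT barcodes, and 4567 against 245 in KO_PBS. The 6 other crystallins listed below were at 27041 against 191 in WT and 21193 against 3008 in KO_PBS. Photoreceptor genes were not higher there, with 126 against 181 in WT and 2048 against 2171 in KO_PBS. The keratocyte list was at 1796 against 1122 in WT, the one other list there whose interval lay above that of the remaining barcodes, and at 1909 against 2248 in KO_PBS.

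The dense barcodes of KO_PBS did not have the make-up of their library. Gamma crystallins made up 22.7% of their crystallin UMIs, near the 23.4% of the WT dense barcodes, but 39.3% in the remaining KO_PBS barcodes. These are pooled values, and single barcodes differed. The WT barcodes ranked 1 to 3 by crystallin UMIs held 1647, 1362 and 1126 of the 8939, with gamma shares of 17.8%, 14.4% and 37.6%. Crybb2 made up 36.7% in the KO_PBS dense barcodes and 16.3% in the WT ones, and Cryba1 3.41% and 17.1%. The contrast between Crybb2 and Cryba1 seen over the whole libraries was thus also present in the dense barcodes, with ratios of 10.8 in KO_PBS and 0.955 in WT. The higher share of the gamma family as a whole was not, but its genes differed. Crygs was at 6.68% in the KO_PBS dense barcodes and 13.2% in the WT ones. The other gamma genes were higher in KO_PBS: Crygc at 6.06% and 5.52%, Crygd at 6.68% and 3.70%, Cryge at 2.77% and 0.794%, and Crygf at 0.549% and 0.201%. The dense barcodes were at 112272 CPM in WT and 100184 in KO_PBS, against 836 and 10523 over the libraries. Crystallin UMIs that lie over the whole library may thus weigh more in the KO_PBS shares, which was not tested.

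Crystallins outside the 10 followed the same order of libraries. All 6 of them (the beta crystallins Cryba2, Cryba4 and Crybb1 and the gamma crystallins Cryga, Crygb and Crygn) were lower in KO than in WT, beside 8.63% of all genes, and higher in KO_PBS than in KO and in WT, beside 39.9% and 57%, with a median log2 ratio of 4.87 for KO_PBS against KO. Crygb was at 72.0 CPM in WT, 30.2 in KO and 1576 in KO_PBS. Cryga was 78.4-fold higher in KO_PBS than in KO, and Crygn 7.15-fold. Against WT the log2 ratio of Crygn was 1.67, beside 1.27 for the median gene. Of 7 relatives of crystallins and enzymes that carry the name, Crym and Cryz were higher in KO_PBS than in KO, where 39.9% of all genes were, at 2.05 and 10.3 CPM in KO_PBS. In WT, KO and KO_PBS, Crybg1 had 101, 164 and 108 CPM.

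Most other lens fibre genes were also higher in KO_PBS. Of 12 genes matched by identifier, 11 were higher in KO_PBS than in KO, all but Tdrd7, beside 39.9% of all genes. All 12 were higher in KO_PBS than in WT, beside 57% of all genes. However, Tdrd7, at a log2 ratio of 1.02, was below the median gene, at 1.27. Bfsp1 and Caprin2, at 1.97 and 2.20, were less than 2-fold above it. In KO against WT 2 of the 11 with enough UMIs were lower, Mip and Gja3, and 0 higher, beside 8.63% and 20.6% of all genes. Mip, the water channel of lens fibres, was at 1.48 CPM in WT, 0.544 in KO and 22.8 in KO_PBS, 41.9-fold higher in KO_PBS than in KO. Grifin, a lens galectin relative, was at 4.81, 2.44 and 74.9, and the beaded filament gene Bfsp2 at 5.61, 3.03 and 61.7. Lim2 carried another identifier in KO_PBS and had by symbol 915, 419 and 5323 UMIs.

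Transcription factors of the lens split. Of the 9 with enough UMIs, 7 were higher in KO_PBS than in KO, beside 39.9% of all genes, among them Six3 (1.74, 1.02 and 50.9 CPM in WT, KO and KO_PBS) and Maf (14.6, 50.4 and 339). Maf was also 3.46-fold higher in KO than in WT, the opposite of the crystallins, and so was Gata3, 9.91-fold. Which cells gave the UMIs of these 2 genes was not tested. The immune list was also higher in KO, at 943 CPM against 46.5 in WT. Of the 7 with enough UMIs in that comparison 2 were higher and 0 lower, beside 20.6% and 8.63% of all genes. Pax6, an eye-field gene that the corneal epithelium also expresses, was at 506, 400.3 and 459 and was not counted as different in any comparison without centring, with a log2 ratio of KO_PBS to WT of -0.14 beside 1.27 for the median gene. Foxe3, a gene of the lens epithelium, had 1 UMI in each library. Of the 6 small heat shock relatives of the alpha crystallins, 5 were higher in KO_PBS than in KO, beside 39.9% of all genes. Hspb1, at 2155, 1119 and 921 CPM, was the exception and was lower in KO_PBS than in WT, so the heat shock genes did not move as 1 group with Cryab. Hspb3, with 10 UMIs in KO and 75 in KO_PBS, was among the 5 but met the UMI minimum only through KO_PBS.

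The summed markers of other eye tissues had the same order of libraries as the crystallins. The 9 photoreceptor genes summed to 181 CPM in WT, 58.6 in KO and 2171 in KO_PBS, a KO_PBS to KO ratio of 37.0 beside 34.8 for the crystallins. The 7 pigment cell genes summed to 493, 143 and 4216, a ratio of 29.5. The 6 retinal pigment epithelium genes summed to 77.8, 28.6 and 376, a smaller ratio of 13.2. Of these 22 genes, 19 were lower in KO than in WT, beside 8.63% of all genes. All 22 were higher in KO_PBS than in KO and than in WT, beside 39.9% and 57% of all genes, with Best1, a chloride channel of the retinal pigment epithelium, at a log2 ratio to WT of 1.07, below the 1.27 of the median gene. None of the markers was at 0 in any library. Their part in the crystallin differences was not tested.

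Markers of the cornea and its surroundings followed other orders. Keratocyte genes summed to 1123 CPM in WT, 3849 in KO and 2248 in KO_PBS, immune genes to 46.5, 943 and 760, corneal endothelium genes to 214, 298 and 1164, and skeletal muscle genes to 8.42, 14.0 and 175. Red blood cell genes summed to 57.1, 214 and 1235 and vascular endothelium genes to 22.5, 53.7 and 133. The keratocyte and immune sums were highest in KO, and the other 4 were highest in KO_PBS, as the crystallins were. All 6 sums were larger in KO than in WT, where that of the crystallins was smaller, but corneal endothelium only 1.39-fold and skeletal muscle 1.66-fold. By the rule of size 7 of 7 keratocyte, 9 of 9 immune, 4 of 5 red blood cell and 4 of 6 vascular endothelium genes were higher. For skeletal muscle it was 2 of 6 and for corneal endothelium 1 of 5. Of all genes 20.6% were higher.

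**Figure D5:**
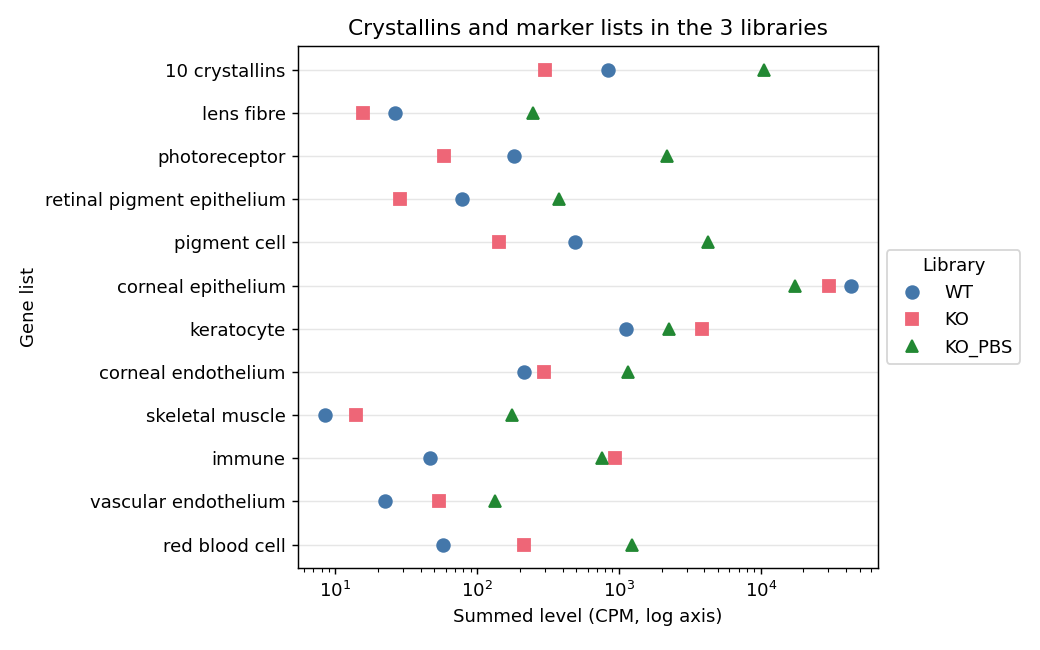
Summed level of the 10 crystallins and of each marker list (CPM, log axis), 1 point per library. The crystallin, lens fibre, photoreceptor, retinal pigment epithelium and pigment cell lists share the order KO, WT, KO_PBS from low to high, while the corneal epithelium list is highest in WT at 43555.

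Among 13376 genes with at least 5 CPM in a library, those whose centred log2 levels lay nearest to the summed crystallins over the 3 libraries were Cldn19, Luzp2, Rlbp1, Cngb1, Phactr3, Rbm24, Tbx3os1, Gad2, Gabbr2 and Ism2, at distances of 0.0337 to 0.120. The distances of the 10 crystallins from their own sum ran from 0.104 for Cryaa to 1.49 for Cryge. Rlbp1, a retinoid-binding protein of retinal support cells, had 3.49 (WT), 1.25 (KO) and 46.3 (KO_PBS) CPM, and Cngb1, a rod channel subunit, 3.28, 1.17 and 38.8. All of these nearest genes reached 5 CPM in KO_PBS alone, so the filter itself favoured genes that are high there. Likeness over 3 libraries rests on 3 points and is a description only.

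Over 98080 KO_PBS barcodes with at least 1000 UMIs, the genes with the highest Pearson correlation with the summed crystallins (natural log of 1 plus UMIs per 10000) were S100a6 (0.37), Lypd2 (0.28), Aldh3a1 (0.26) and Tmsb4x (0.26), followed by Rps29, Gm42418, Rpl13, Slurp1, Rplp1 and Ptgds, the last at 0.14. The barcodes share 1 library and depth enters both measures. Apart from Ptgds, these genes are abundant in every library (S100a6 at 13153 CPM in KO_PBS). Ptgds was at 539 (WT), 133 (KO) and 4145 (KO_PBS) CPM, the order of the crystallins. None of these genes was in the lens lists. In WT and KO their correlations lay between -0.07 and 0.04.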

How the data were processed

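For 3 single-nucleus libraries, 1 per group, the authors deposited raw counts of UMIs, a whole number for each gene in each barcode. Per the file headers, Cell Ranger 7.0.1 made the counts, and the submitters' processing notes name the build mm10. Which annotation and barcode filter were used, and whether intronic reads were counted, is not given in the sources used here.

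All barcodes of a library were summed, and levels are CPM, UMIs per 1000000, over the 30406 Ensembl identifiers in every gene list, which held 99.6% (WT), 99.6% (KO) and 99.3% (KO_PBS) of the UMIs. Poisson and binomial (Clopper-Pearson) intervals are exact, at 95%, and cover counting error only. Counts below 3 were set to 3 in ratios. The rule of size was tested on data simulated with counting error only, which cannot show how libraries of 1 group vary. No cells were clustered and no doublet caller was run, so doublets remain. The 10 crystallins and all gene lists were chosen with earlier results of these data known. The genes named are the 10 crystallins, those of the lens lists, the 10 nearest over the libraries and the 10 most correlated over KO_PBS barcodes. Promoters were aligned globally and scored over the longer sequence with biopython 1.88. The remaining tools were scipy 1.17.1, numpy 2.4.6, pandas 2.3.3 and matplotlib 3.10.9 under python 3.11.15. Alternatives changed the library total, the centring, the gene match, the barcodes, the depth, the fold, the UMI minimum, the thinning depth and the marker rule.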

Additional observations from a re-analysis of the deposited data

How the results depend on the processing

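No direction of the summed crystallins was reversed under any alternative run. No paired analysis was possible because each group had 1 library, and for the same reason no replicate could be left out. The log2 ratio of the summed level was -1.47 for KO against WT, 5.12 for KO_PBS against KO and 3.65 for KO_PBS against WT. Without the 50 genes with the most UMIs in any library it was -1.64, 4.97 and 3.33, and centred on the median gene -1.71, 4.49 and 2.38. In the 25% of barcodes with the fewest UMIs it was -1.51, 5.31 and 3.80, and without the 1% of barcodes richest in crystallins -1.36, 5.23 and 3.86. Without crystallin-dense barcodes, an alternative added after the data were seen, it was -1.42 for KO against WT and 3.70 for KO_PBS against WT. With a fold of 4 in place of 2, 0 of the 10 genes in place of 9 were lower in KO than in WT, and 9 in place of 10, all but Cryab, were higher in KO_PBS than in WT, as with centring. Over all genes, that fold left 403 of 20252 lower in KO than in WT and 7800 of 22138 higher in KO_PBS than in WT. In the 25% of barcodes with the fewest UMIs the gamma share was 25.8% in WT, 25.6% in KO and 40.2% in KO_PBS, and without dense barcodes 39.3% in KO_PBS. Thinned to 500 UMIs, the variance over mean was 3.85 for WT, 1.69 for KO and 1.51 for KO_PBS. With 2 genes of the lens fibre list in place of 3, lens fibre-rich barcodes were at 9966 (WT), 1956 (KO) and 15563 (KO_PBS) CPM. With 10 times the library share they were at 63676 in KO_PBS and unchanged in WT and KO. Where these values moved, the cause was not tested beyond what the alternative itself changes. Depth does not limit the differences over whole libraries, but the 3 lens fibre-rich and 2 crystallin-dense barcodes of KO do not support a make-up of their own.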
